A study of Mus musculus with 9 samples.

Results

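The transcripts examined here encode 10 solute carriers of the kidney tubule, the glucose and carboxylate transporters Slc5a1, Slc5a2, Slc5a8, Slc5a10, Slc5a12, Slc2a2, Slc13a1, Slc13a2, Slc13a3 and Slc16a14. They were given as a list of symbols, chosen with earlier results of these data known, and all 10 were found among the 13081 genes of the deposited table. Kidney RNA from wild type mice had been sequenced at 3 months of age (young, n = 4) and at 16 months of age (old, n = 5), 1 mouse per library, without any treatment. The labels name no mutation, transgene, strain or sex, and both age groups share the wild type genotype and the whole kidney as tissue. The comparison asks which of these transporter transcripts differ in level between young and old kidneys of mice that carry no mutation.

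The proximal tubule takes back filtered glucose, lactate, citrate, succinate and sulfate. Carriers of the SLC5 and SLC13 families in the brush border use the sodium gradient kept by the Na,K-ATPase to bring these solutes in. Carriers of the SLC2 and SLC16 families in the basolateral membrane mostly let glucose and lactate out towards the blood. Slc5a2 (SGLT2) takes up most of the glucose in the early proximal tubule, and Slc5a1 (SGLT1) takes up the remainder in the late, straight part. Slc13a1 (NaS1) carries sulfate and so is neither a glucose nor a carboxylate carrier, and the substrate of Slc16a14 (MCT14) is not established. Slc5a10 (SGLT5) carries mannose and fructose and is set here beside the glucose carriers. For these genes the name of the group is used loosely.

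The values are normalised counts, for which the reads of a gene had been divided by the size factor of the library, and 1 read was worth 0.819 to 1.18 normalised counts. The libraries held 5093029 to 6355095 reads in young and 4486406 to 5794960 in old. The mitochondrial share of the normalised counts was 27.0% to 29.7% in young and 35.8% to 38.1% in old. The titles of the young and the old libraries carry different prefixes, so age cannot be told apart from a preparation that went with the prefix. Differences were tested with limma across 12667 genes and are given as old minus young on the log2(normalised count + 1) scale with their standard error (SE), and a gene is referred to as called at an adjusted p-value under 0.05. Because the library kit reads only the 3′ end of each transcript, levels were compared between ages within a gene and not between genes. In whole kidney, fewer cells of a type and less RNA per cell cannot be told apart.

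The 2 extremes of the group are introduced with the bases just before their transcription starts, next to those of Slc2a2 and Slc5a10, the members whose windows hold a match to a searched motif. The sequences are from RefSeq on GRCm38.p6, run 5′ to 3′ on the strand of the gene and end 1 base before its annotated start. RefSeq entries were matched for 7 of the 10 members, and those of Slc5a2, Slc5a12 and Slc13a1 were not used here. Capitals mark matches on either strand to AGGTCA, a half-site of nuclear receptors such as HNF4α.
Slc16a14, chr1:84935084-84935333, minus strand: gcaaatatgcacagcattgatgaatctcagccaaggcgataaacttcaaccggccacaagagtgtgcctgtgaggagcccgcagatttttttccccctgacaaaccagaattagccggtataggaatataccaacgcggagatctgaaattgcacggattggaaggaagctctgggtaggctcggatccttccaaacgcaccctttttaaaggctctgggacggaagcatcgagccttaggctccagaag
Slc5a8, chr10:88885742-88885991, plus strand: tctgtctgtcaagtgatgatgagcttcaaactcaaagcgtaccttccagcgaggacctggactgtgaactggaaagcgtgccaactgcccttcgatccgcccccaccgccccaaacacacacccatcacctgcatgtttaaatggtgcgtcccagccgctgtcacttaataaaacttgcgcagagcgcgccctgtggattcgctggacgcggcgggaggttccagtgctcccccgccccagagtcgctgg
Slc2a2, chr3:28697653-28697902, plus strand: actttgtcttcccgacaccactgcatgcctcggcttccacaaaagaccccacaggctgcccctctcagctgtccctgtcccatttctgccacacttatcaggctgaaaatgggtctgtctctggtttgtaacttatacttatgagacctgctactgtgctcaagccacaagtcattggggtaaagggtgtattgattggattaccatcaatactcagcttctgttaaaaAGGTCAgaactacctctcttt
Slc5a10, chr11:61720800-61721049, minus strand: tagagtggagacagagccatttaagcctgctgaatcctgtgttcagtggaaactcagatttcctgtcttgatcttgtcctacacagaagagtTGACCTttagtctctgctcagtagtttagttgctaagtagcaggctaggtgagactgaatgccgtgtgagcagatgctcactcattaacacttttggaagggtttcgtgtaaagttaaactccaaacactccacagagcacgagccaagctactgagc

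Within 250 bases upstream, AGGTCA was present on either strand in 2 of the 7 members and in 14.0% of 32851 RefSeq promoters. The longer HNF4 sequence CAAAGTCCA was in 0 of 7 members and in 0.384% of promoters. The window of another RefSeq start of Slc5a10 held no match. These motifs were chosen after the values were seen. A match describes the letters of the window only. Hnf4a, the gene of the factor named with these motifs, is described with its own levels further on.

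Of the 10 transporters, 3 were higher in old kidneys (Slc16a14, Slc5a12 and Slc13a1), 5 were lower (Slc5a8, Slc13a3, Slc5a2, Slc5a10 and Slc5a1) and 2 were not called (Slc2a2 and Slc13a2). The 8 calls stand beside a background of 59.7% called among all genes tested, 29.2% higher and 30.5% lower. That balance moved with the scaling, from 3704 genes higher and 3864 lower to 4472 and 3173 with mitochondrial genes left out, and to 2940 and 4280 when centred on proximal tubule markers. The ages did not overlap for 6 members, 3 in each direction, against 49% of all genes. The median absolute log2 difference was 0.62 over the members and 0.56 over all genes, and the median signed difference was -0.23 against -0.0027. The 8 of 10 are near that background share, so the count says nothing particular about the members, which moved in both directions.

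**Figure D1:**
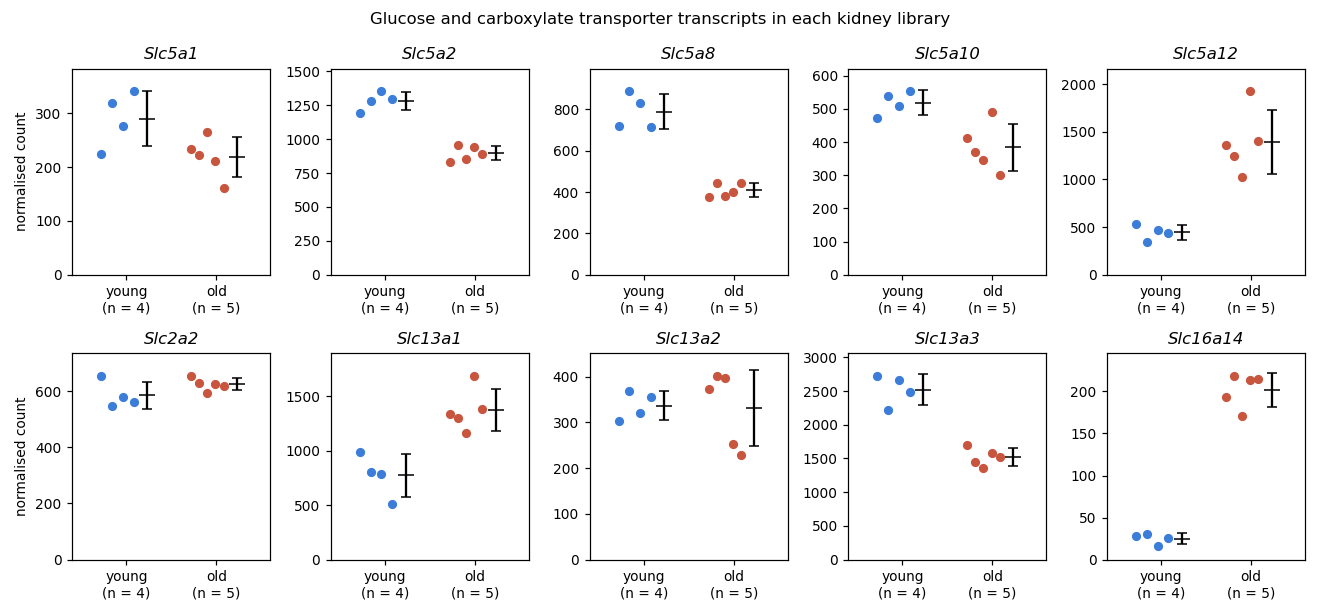
Normalised counts of the 10 transporter genes in each library, 1 panel per gene, with blue points for the 4 young and red points for the 5 old libraries and a bar for the mean ± SD. All vertical axes start at 0, and the ages are fully separated for Slc5a2, Slc5a8, Slc5a12, Slc13a1, Slc13a3 and Slc16a14.

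Among the glucose carriers, Slc5a2, the main apical glucose transporter, fell. Its normalised counts were 1189, 1281, 1357 and 1294 in young and 833, 953, 856, 941 and 890.0 in old libraries. Every old library lay below every young library. The mean went from 1280.1 ± 69.2 (SD, n = 4) to 895 ± 52.0 (SD, n = 5), a log2 difference of -0.52 (SE 0.087, limma adjusted p = 4.99e-05). Over all alternative settings the difference ranged from -0.64 to -0.34 and stayed called.

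Slc5a1, the glucose and galactose transporter of the late proximal tubule, fell by less in relation to its spread. Young libraries had 224, 319, 276 and 342 and old libraries 235, 223, 265, 211 and 161 normalised counts. The lowest young library lay inside the range of the old ones. The log2 difference was -0.41 (SE 0.15, limma adjusted p = 0.0222). The call was lost without the second young (adjusted p = 0.0733), the fourth young (0.091) or the fifth old library (0.0596), and also on libraries scaled to equal totals without their mitochondrial genes (-0.27, adjusted p = 0.146), with a range of 0.00673 to 0.146 over all alternatives.

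Slc5a10 (SGLT5), which carries mannose and fructose, was lower too. Its counts were 473, 540.2, 509 and 555 in young and 413, 369, 347, 489.7 and 301 in old libraries. The fourth old library lay above the lowest young one, and the other 4 old libraries lay below all young ones. The log2 difference was -0.45 (SE 0.12, limma adjusted p = 0.0039). With a trend on transcript length removed from each library it was -0.28 and no longer called (adjusted p = 0.0582). The gene has the shortest annotated transcript of the group (2261 bases, against a median of 3075 over the genes with a length).

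Slc2a2 (GLUT2), the basolateral carrier through which glucose leaves the cell, was not called. Young libraries had 655, 547, 579 and 560.4 and old libraries 654, 628, 593, 624 and 619.5 normalised counts. The first young library was the highest of all 9, and the other 3 young libraries lay below the 5 old ones. The log2 difference was 0.094 with a 95% interval of -0.096 to 0.28 (limma adjusted p = 0.387). Its sign depended on the setting: it was 0.24 and called (adjusted p = 0.0274) with mitochondrial genes left out, -0.025 when centred on proximal tubule markers and -0.14 with the length trend removed.

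Slc5a8 and Slc5a12, the sodium-coupled monocarboxylate transporters of high and of low affinity for lactate (SMCT1 and SMCT2), changed in opposite directions. Slc5a8 had 719, 891, 832 and 716 normalised counts in young and 375, 446, 382, 399 and 444 in old libraries. Slc5a12 had 532, 339, 475 and 434 in young and 1359, 1242, 1029, 1931 and 1407 in old libraries. The ages did not overlap for either gene. Slc5a8 fell by 48.1% in its mean, from 789.6 ± 86.6 (SD, n = 4) to 409 ± 34.0 (SD, n = 5), with a log2 difference of -0.94 (SE 0.10, limma adjusted p = 2.65e-07), the largest fall of the group. Slc5a12 rose by 1.63 on the log2 scale (SE 0.15, limma adjusted p = 3.46e-08), from 445 ± 81.0 to 1394 ± 334. Of the 12667 genes tested, 373 rose at least as far as Slc5a12 and 1931 fell at least as far as Slc5a8, with these genes themselves counted.

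Slc16a14, an orphan member of the proton-linked monocarboxylate family, had the largest rise. It had 27.8, 30.1, 15.7 and 26.3 normalised counts in young and 193, 219, 170.4, 214 and 214 in old libraries. All 4 young libraries lay far below all 5 old ones, and also above 2.94, the highest level that 3 reads have in a young library. The mean rose from 25.0 ± 6.39 (SD, n = 4) to 202 ± 20.3 (SD, n = 5), 8.09 times as high, with a log2 difference of 3.00 (SE 0.18, 95% interval 2.62 to 3.38, limma adjusted p = 1.26e-10). Only 78 genes, 0.616% of those tested, rose as far or further. Over the alternatives its difference ranged from 2.80 to 3.14.

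**Figure D2:**
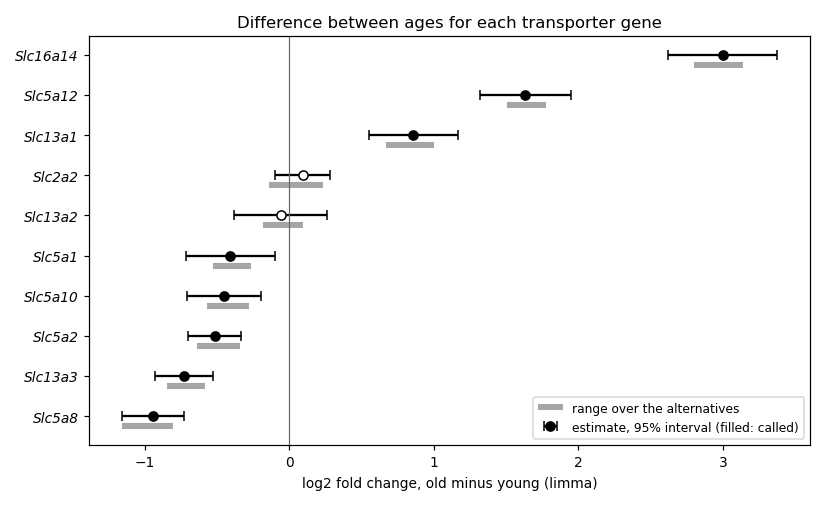
Log2 differences (old minus young) of the 10 genes from limma, with 95% intervals, filled points where called and grey bars for the range over the alternative settings. Slc16a14 stands at 3.00 and Slc5a8 at -0.94, and the grey bars of Slc2a2 and Slc13a2 cross 0.

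The SLC13 members moved apart as well. Slc13a3 (NaDC3), the high-affinity basolateral transporter of succinate and other dicarboxylates, had 2729.6, 2214, 2659 and 2481 normalised counts in young and 1703, 1454, 1353, 1576 and 1524 in old libraries. Every old library was below every young one. The log2 difference was -0.73 (SE 0.095, limma adjusted p = 2.83e-06), with means of 2521 ± 229.6 (SD, n = 4) and 1522 ± 131 (SD, n = 5).

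Slc13a2 (NaDC1), the apical transporter that recovers citrate and succinate from the filtrate, was not called. Its counts were 302, 368, 321 and 357 in young and 374, 403, 397, 254 and 229 in old libraries. The old libraries lay on both sides of the young range, 3 above all young libraries and 2 below all of them. The log2 difference was -0.060 with a 95% interval of -0.38 to 0.26 (limma adjusted p = 0.756). It turned to 0.026 without the fourth old library and to 0.062 without the fifth, and to 0.082 with mitochondrial genes left out, 0.092 with the length trend removed and 0.00390 with reads thinned to the smallest library.

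Slc13a1, the apical sodium-sulfate carrier, rose. Young libraries had 987, 805, 787 and 509.7 and old libraries 1337, 1297, 1163, 1689 and 1383 normalised counts. The fourth young library was the lowest of all 9 and the fourth old library the highest, and the ages did not overlap. The log2 difference was 0.86 (SE 0.15, limma adjusted p = 6.08e-05), and without the fourth young library it was 0.67, still called.

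Single libraries did not hold the same rank across the genes. The first young library, which had the most reads of all, was the highest young library for Slc5a12, Slc2a2, Slc13a1 and Slc13a3 and the lowest for Slc5a1, Slc5a2, Slc5a10 and Slc13a2. Among the old libraries the fourth, the deepest of them, was highest for Slc5a10, Slc5a12 and Slc13a1. The second, with 4806485 reads, was highest for Slc5a2, Slc5a8, Slc13a2 and Slc16a14. The third was lowest for Slc5a12, Slc2a2, Slc13a1, Slc13a3 and Slc16a14. In the third old library the principal cell marker Aqp2 was at 2267 normalised counts, against 334 to 694 in the other old libraries. The proximal tubule markers Slc34a1, Ggt1, Miox, Keg1 and Ttc36 also had their lowest old level there. The markers Lrp2, Cubn, Aqp1, Gatm and Slc4a4 did not. These ranks are a description of 9 libraries, and their relation to depth or to cell content was not tested.

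In ratios of pairs of members within a library the size factor of that library cancels, except for the pseudocount of 1 added to each normalised count. The pairs were chosen with earlier results known. Slc5a8/Slc5a12 and Slc16a14/Slc5a8 join genes that each separate by age in opposite directions, so their ratios had to separate too and are given as a description, with no test. For the other 3 pairs the difference between ages in the mean log2 ratio was tested with an exact two-sided permutation test over the 9 libraries, whose smallest possible p is 0.0159. The p-values were adjusted over all 5 pairs, as the test had been set, and also over the 3 pairs alone, an alternative chosen after seeing the data. The 5 include the pairs that had to separate, and their small p-values can lower the adjusted p of the others. The difference in a ratio is given, and the ratio itself is not a ratio of molecules.

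Slc5a8 over Slc5a12 changed from a log2 ratio of 0.84 ± 0.40 (SD, n = 4) to -1.74 ± 0.34 (SD, n = 5), a difference of -2.58. The young libraries had 0.44 to 1.39 and the old libraries -2.27 to -1.43. All 5 old libraries lay below all 4 young ones.

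Slc2a2 over Slc5a2, basolateral exit over apical entry of glucose, rose from -1.13 ± 0.18 (SD, n = 4) to -0.52 ± 0.10 (SD, n = 5), a difference of 0.61 (exact permutation p = 0.0159, adjusted 0.0265 over 5 pairs and 0.0476 over 3). Slc5a2 by itself already separated the ages (-0.52) and Slc2a2 was at 0.094, so this p adds little to the fall of Slc5a2. The annotated transcripts of Slc2a2 and Slc5a2 differ in length (5569 and 2277 bases), and a ratio does not remove a length trend. With that trend removed, Slc2a2 was at -0.14 and Slc5a2 at -0.34, closer together than in the main test. The ratio was not recomputed in that way. In the ratio, the first young library, at -0.86, stood apart from the other 3 at -1.23 to -1.21, and still lay below every old library. In contrast, Slc5a1 over Slc5a2, the late over the early apical glucose carrier, differed by 0.11 with overlapping ages (exact permutation p = 0.556, adjusted 0.556).

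Slc13a2 over Slc13a3, the apical over the basolateral dicarboxylate carrier, differed by 0.67 (exact permutation p = 0.0476, adjusted 0.0595 over 5 pairs and 0.0714 over 3), and the ages overlapped, since the fourth and the fifth old library lay within the young range. The p adjusted over 5 pairs, with the pairs that had to separate among them, was 0.0397 with reads thinned to the smallest library. Without the second young library it was 0.0446 in the same way. These alternatives were not adjusted over the 3 pairs alone, so no call is drawn from them. Slc16a14 over Slc5a8, the largest rise over the largest fall, differed by 3.94, from a log2 ratio of -4.96 ± 0.46 (SD, n = 4) to -1.02 ± 0.10 (SD, n = 5). Without 1 of the young libraries the smallest possible p becomes 0.0357, and Slc2a2/Slc5a2 then had a p of 0.0595, adjusted over 5 pairs, without the first, the third or the fourth young library.

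**Figure D3:**
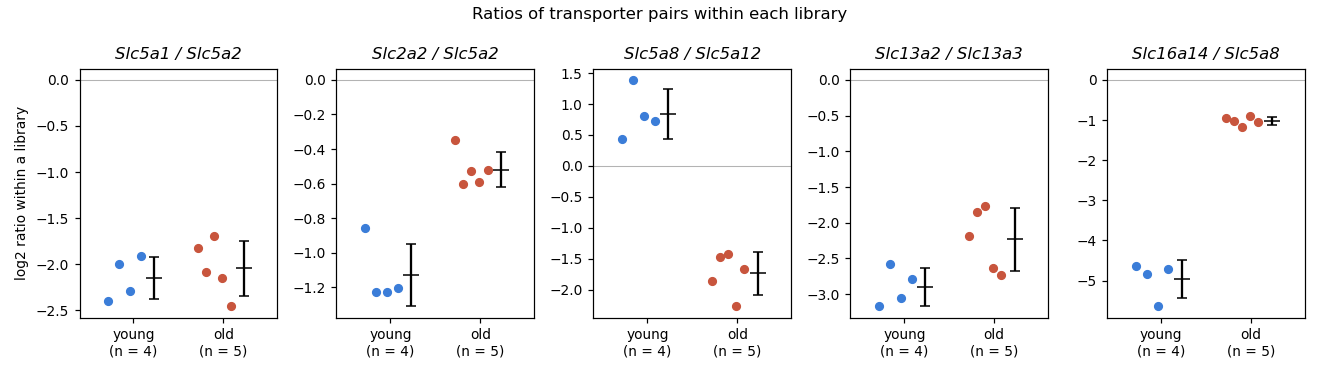
Log2 ratios of 5 pairs of transporter genes within each library, blue for the 4 young and red for the 5 old libraries, with the mean ± SD beside them. Slc5a8/Slc5a12 lies above 0 in the young and below 0 in the old libraries, and Slc5a1/Slc5a2 overlaps between the ages.

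Other members of these families and the partners of the transporters were listed alongside, 42 genes of which 31 were in the table and tested. Of these, 9 were higher, 13 lower and 9 not called, 71.0% called against the background of 59.7%. Counted over the 24 from the transporter families alone, 8 were higher and 9 lower. The background of 29.2% higher and 30.5% lower also applies to the counts per family and per cell type below.

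In the SLC5 family the other 4 measured genes were all called, 3 of them higher. Slc5a9 (SGLT4), a mannose and glucose transporter, rose by 0.88 on the log2 scale (SE 0.14, limma adjusted p = 2.75e-05), and the myo-inositol transporters Slc5a3 and Slc5a11 rose by 0.80 and 0.65. Slc5a3, with a long annotated transcript, was at 0.23 and not called (adjusted p = 0.103) with the length trend removed. Slc5a6, which carries biotin and pantothenate, fell by 0.79. With the 5 members counted, the family therefore had 4 genes higher and 5 lower, and the glucose carriers Slc5a1 and Slc5a2 were on the other side from Slc5a9.

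The facilitative sugar carriers of the SLC2 family had 0 genes higher and 4 lower among 7 measured. The neuronal-type glucose transporter Slc2a3 fell by 2.03 (SE 0.31, limma adjusted p = 1.38e-05), with 55.9 to 96.6 normalised counts in young and 9.43 to 33.9 in old libraries. Slc2a9, which carries urate, fell by 1.76 on the log2 scale, and the widely used glucose transporter Slc2a1 fell by 1.14. Slc2a5, the fructose transporter, fell by 0.44 and was not called with mitochondrial genes left out (adjusted p = 0.0656). Slc2a4, Slc2a8 and Slc2a12 were not called, with log2 differences of -0.41, -0.18 and -0.86. Slc2a4 was called under 4 alternatives, when scaled to the table total (adjusted p = 0.0436), when centred on proximal tubule markers (0.0314) and without the third (0.0169) or the fourth old library (0.0411). Slc2a12 was called under 3, when centred in that way (0.0445), with the length trend removed (0.0482) and without the second old library (0.0254). Slc2a2 was thus 1 of 4 among the 8 measured SLC2 genes that were not called.

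Among monocarboxylate carriers of the SLC16 family, 4 were higher and 4 lower of 10. Slc16a1 (MCT1), the common lactate and pyruvate carrier, had 164, 131, 137 and 85.1 normalised counts in young and 579.9, 465, 488, 618 and 578 in old libraries. These ranges were far apart, and the log2 difference was 2.10 (SE 0.15, limma adjusted p = 1.62e-09), the largest rise among the relatives. Slc16a9, a carnitine and creatine carrier, rose by 1.13, and Slc16a12, a creatine transporter, by 0.46. Slc16a5 rose by 0.42 and lost its call in 6 of the 9 fits that left out a library, as well as on 2 other scalings. Slc16a11 fell by 1.90 on the log2 scale (SE 0.23, limma adjusted p = 8.56e-07), Slc16a4 by 0.73, Slc16a13 by 0.67 and Slc16a6 by 0.55. Slc16a7 (log2 difference 0.090) and the aromatic amino acid transporter Slc16a10 (0.23) were not called. Slc16a10 was at 0.37 and called with mitochondrial genes left out (adjusted p = 0.0138). Slc16a7 was at -0.48 and called (adjusted p = 0.0018) once the length trend was removed, and at -0.029 when centred on proximal tubule markers.

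Slc26a1, the basolateral exchanger through which sulfate leaves the proximal tubule cell, rose together with Slc13a1. It had 681 to 789 normalised counts in young and 1161 to 1403 in old libraries, without overlap, and a log2 difference of 0.79 (SE 0.091, limma adjusted p = 5.93e-07). The SLC13 relative Slc13a4 (-0.66, adjusted p = 0.0721) and the anion exchanger Slc26a6 (-0.31, adjusted p = 0.509) had few reads and were not called by limma. Slc13a4 was called when centred on proximal tubule markers (adjusted p = 0.0386), with thinned reads (0.0372) and without the fourth old library (0.0295).

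**Figure D4:**
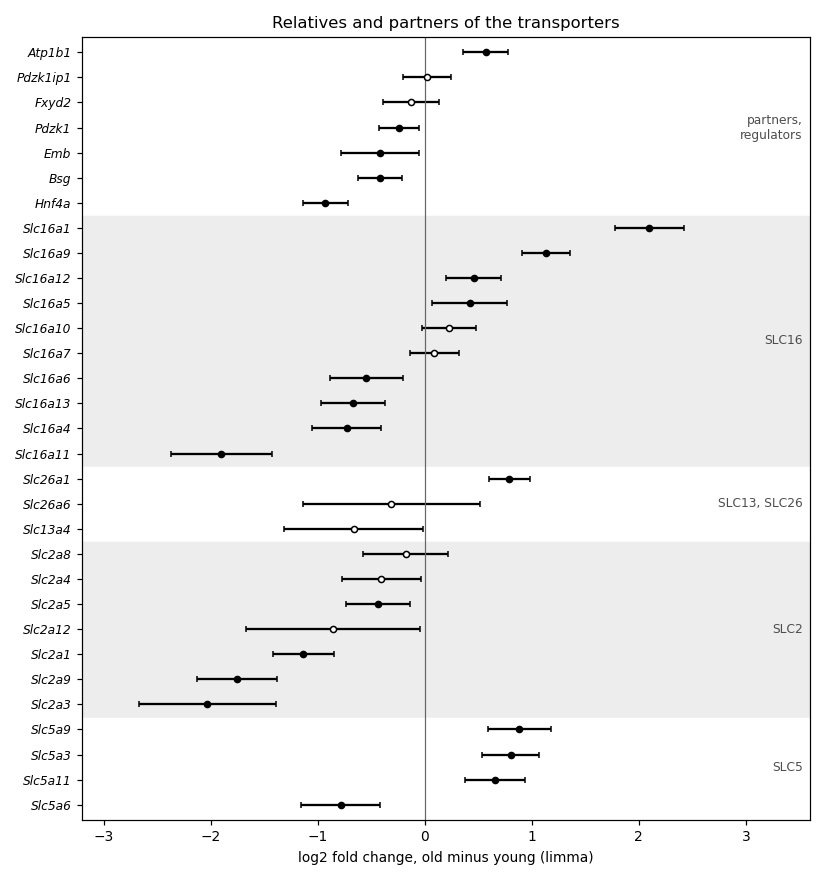
Log2 differences (old minus young) with 95% intervals from limma for 31 relatives and partners of the transporters, sorted within family, with filled points where called. Slc16a1 is the furthest to the right at 2.10 and Slc2a3 the furthest to the left at -2.03.

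Of the 7 partners and regulators, 1 was higher, 4 lower and 2 not called. Atp1b1, a beta subunit of the Na,K-ATPase, rose by 0.57 on the log2 scale (SE 0.10, limma adjusted p = 7.64e-05), without overlap between ages. Fxyd2, a small regulatory subunit of the same pump, was at -0.13 and not called (adjusted p = 0.39). Pdzk1ip1 (MAP17), the partner that SGLT2 needs for its activity, was not called, at 0.021 with a 95% interval of -0.20 to 0.24. It was at -0.032 when scaled to the table total, -0.097 when centred on proximal tubule markers and 0.40 with the length trend removed (adjusted p = 0.00194, called). Bsg (basigin), the chaperone of MCT1, fell by 0.42 on the log2 scale while Slc16a1 rose, and was at -0.12 with the length trend removed (not called, adjusted p = 0.271). Emb, the chaperone of MCT2, fell by 0.42 (adjusted p = 0.0464) and lost that call in 6 of the 9 fits without a library, without mitochondrial genes (0.186), by DESeq2 (0.058), with the length trend removed (0.117) and with thinned reads (0.0536). The scaffold gene Pdzk1 fell by 0.24 and lost its call without the fourth young, the third old or the fourth old library, with mitochondrial genes left out and with the length trend removed.

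The transcription factor gene Hnf4a, a master regulator of proximal tubule genes, fell. It had 1849, 1821, 2074 and 1708 normalised counts in young and 926, 1116, 879, 895 and 1088 in old libraries. No old library reached a young one, and the log2 difference was -0.93 (SE 0.099, limma adjusted p = 2.39e-07).

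The proximal tubule markers were used to check the tissue and to set the transporters beside the cell type that carries them. All 10 markers were detected in every library, with a summed level of 48896 to 53938 normalised counts in young and 54465 to 70532 in old. Slc34a1, which was not called, was the largest part of that sum (mean 18725 in young and 19329 in old), followed by Miox (10317 and 16281). Of the 10, 4 were higher (Slc4a4, Lrp2, Miox and Aqp1), 3 lower (Gatm, Keg1 and Cubn) and 3 not called, with a median log2 difference of 0.15. Centred on the mean log2 level of these markers in each library, 8 members were called as before, in the same directions, with Slc5a2 at -0.64, Slc5a8 at -1.06, Slc5a12 at 1.51, Slc13a1 at 0.74, Slc13a3 at -0.85 and Slc16a14 at 2.88. Centring in this way shifted the median log2 difference of all genes by -0.12, and leaving out mitochondrial genes shifted it by 0.14.

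Markers of the last proximal tubule segment, S3, moved with age. Of 8 markers, 0 were higher and 7 lower, beside 30.5% lower among all genes tested. Their median log2 difference was -1.25, with a summed level of 20453 to 20859 normalised counts in young against 7848 to 10843 in old. Acy3 was the largest part of that sum, with a mean of 12638 in young and 5489 in old. Slc22a30 was not called (0.25, limma adjusted p = 0.0576). Slc5a1, the member named above for the late proximal tubule, had a smaller fall, of 0.41. Among 8 genes that are known to follow androgens in mouse kidney, 6 were lower and Cyp4a12a was higher, with a summed level of 157888 to 196682 in young and 90980 to 131992 in old, a sum that consists mostly of Kap. The part of these shifts in the differences of the transporters was not tested. The Y-linked gene Ddx3y had 125 to 267 normalised counts in all 9 libraries, and Xist was looked for and not found in the table.

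Markers of other cells were also in the RNA. The summed level of 6 thick ascending limb markers was 9589 to 10561 in young and 12019.5 to 16719 in old, that of 4 distal convoluted tubule markers 3231 to 4071 and 4774 to 5885, and that of 5 leukocyte markers 756 to 942 and 993 to 1375. Single genes carry these sums: of the thick ascending limb markers 2 were higher (Slc12a1 and Egf) and 4 not called, of the distal markers Slc12a3 and Trpm6 were higher and Pvalb and Calb1 lower, and of the leukocyte markers Cd74 (the largest part of the sum) and Ptprc were higher, Coro1a lower and 2 not called. The sum of 5 endothelial markers, of which 3 were higher and 2 not called, was 989 to 1075 in young and 1352 to 1506 in old. That of 5 intercalated cell markers, of which Slc4a1 was higher and 4 were lower, was 698 to 812 and 489 to 599. The sums of 6 principal cell markers (2209.5 to 2873 and 1056 to 3497), 5 podocyte markers (685 to 753 and 736 to 869.9) and 5 adipocyte markers (271 to 1456 and 56.9 to 1114) overlapped between ages. The adipocyte genes Adipoq, Plin1 and Cidec were at 0 in at least 1 library. Their part in the differences of the transporters was not tested.

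**Figure D5:**
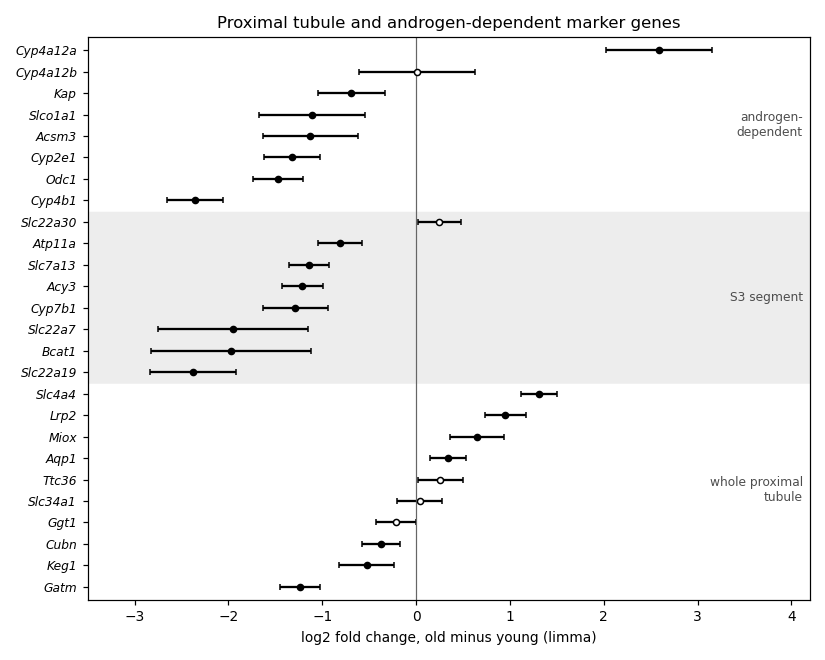
Log2 differences (old minus young) with 95% intervals from limma for whole proximal tubule markers, S3 segment markers and androgen-dependent genes, with filled points where called. The S3 markers lie to the left of 0 except for Slc22a30 at 0.25, and the whole proximal tubule markers lie on both sides of 0.

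By position, the members were spread over 8 chromosomes. On GRCm38 (GENCODE vM21, not the build the authors used) Slc16a14 lies at chr1:84905898-84935134 on the minus strand with 5 exons, and the opposed pair Slc5a8 and Slc5a12 at chr10:88885992-88929515 and chr2:110597298-110647779, both on the plus strand with 15 exons. Slc5a2 lies at chr7:128265657-128272430 and Slc2a2 at chr3:28697903-28731359 on the plus strand. Slc13a1 lies at chr6:24088283-24168092 and Slc13a3 at chr2:165405028-165473230 on the minus strand. Slc5a1 (chr5:33104219-33162870, plus strand) and Slc13a1 overlap another annotated gene on the same strand, Gm15936 and Gm20706, so that reads in the shared part may have been left uncounted. Slc5a2, Slc5a10 (chr11:61672781-61720826, minus strand), Slc2a2 and Slc13a2 (chr11:78397087-78422217, minus strand) have a gene on the other strand at their 3′ end, and the counting used strand. In the last 500 bases 0% of the 50-base words of any member were shared with another gene, so that the members could be told from each other by sequence. Over the 12455 tested genes with a length, which do not count as replicates, longer transcripts tended to larger log2 differences (Spearman's rank correlation 0.284, a description across genes), and of the members called in the main test, Slc5a10 alone lost its call when that trend was removed.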

How the data were processed

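Kidney RNA of 9 wild type mice was measured by sequencing of transcript 3′ ends from 500 ng of RNA. The authors aligned the reads to GRCm39 (TopHat2 2.0.10 with Bowtie 1.0.0 and SAMtools 0.1.19, after FastQC 0.11.7), counted them by strand with HTSeq 0.6.1 on GENCODE vM26 and normalised with DESeq. Labels and methods name different versions of the library kit. The deposited values are a signal: read counts divided by 1 size factor per library. 100% of the values were whole multiples of the smallest positive value of their library (tolerance 0.01), which gave back the reads. The lowest mean of a gene in the table was 4.49 normalised counts, so weakly read genes are not in it. A count of 3 reads was taken as the floor, which covers counting error only.

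Groups follow the age in the labels, and library numbers follow the order of listing. Genes that reached 10 normalised counts in 4 or more libraries were compared on log2(normalised count + 1) by limma 3.58.1 (R 4.3.3; lmFit and trended eBayes), with Benjamini-Hochberg adjustment over all 12667 genes tested. It differs from DESeq2, the tool named in the submitters' processing notes, which was run as an alternative on the reads. Alternatives were pseudocounts of 0.1 and 5, no filter or a mean of at least 100, TMM factors, scaling to the table total, leaving out mitochondrial genes, centring on proximal tubule markers, robust eBayes, edgeR 4.0.16, DESeq2 1.42.0, thinned reads, removal of a length trend by lowess and each library left out. Every member was named, and of the listed relatives those in the table, except that some listed genes are not reported here and were left out of the counts of relatives. Members, lists, ratios and tests were chosen with earlier results of these data known.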

Additional observations from a re-analysis of the deposited data

Results flagged for a closer look

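Libraries that stood apart from the others of their age were sought with Dixon's gap ratio, the gap of the highest or lowest library to its nearest neighbour divided by the range of the group. Of 92 groups tested, 5 passed the 95% limit, and chance gives about 1 in 20. None of them was a single member gene. The log2 ratio Slc2a2/Slc5a2 in young had a gap ratio of 0.944, since the first young library was at -0.86 and the others at -1.23 to -1.21. Pdzk1 in young had 0.909, with the fourth library at 2595 normalised counts and the others at 2160.4 to 2197. Emb in young had 0.894, with the second library at 101 and the others at 79.4 to 81.5. Slc16a13 in old had 0.761, with the third library at 87.2 against 127 to 143. Slc2a12 in old had 0.735, with the fifth library at 3.18, the level of 3 reads, and the others at 13.1 to 20.8.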

How the results depend on the processing

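The results for genes were recomputed under 22 alternatives, 9 of which left out 1 library, or under 21 where a gene did not pass the stricter filter. The ratios were recomputed under 12 only: the pseudocounts, thinned reads and 1 library left out. Slc5a2, Slc5a8, Slc5a12, Slc13a1, Slc13a3 and Slc16a14 kept their direction and call under all 22. With only genes whose mean reached 100 normalised counts, 4101 genes were called, 2040 higher and 2061 lower, because fewer genes were tested, against 7568 (3704 and 3864), and the relatives called lower went from 13 to 8. edgeR called 7649 genes and DESeq2 7532, of which limma also called 7489 and 7425, and DESeq2 gave no adjusted p for 9. Leaving out 1 library gave 6756 to 7561 called genes, 7 to 8 called members and 19 to 23 called relatives. The ratio difference then ranged from 0.57 to 0.70 for Slc2a2/Slc5a2, -2.71 to -2.39 for Slc5a8/Slc5a12, 0.55 to 0.79 for Slc13a2/Slc13a3 and 3.72 to 4.05 for Slc16a14/Slc5a8. Slc13a2/Slc13a3 was 0.72 with thinned reads (exact permutation p adjusted over 5 pairs 0.0397, against 0.0595 in the main test). The 5 include the pairs that had to separate, so no call is drawn from it.

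Changes of sign were limited to values that were not called in the main test, and the cause was not tested. With mitochondrial genes left out, Slc13a2 was at 0.082 and Fxyd2 at 0.015. Centred on proximal tubule markers, Slc2a2 was at -0.025, Slc16a7 at -0.029 and Pdzk1ip1 at -0.097. With the length trend removed, Slc2a2 was at -0.14, Slc13a2 at 0.092, Slc2a8 at 0.019, Slc16a7 at -0.48 and Fxyd2 at 0.32 (called, adjusted p = 0.0265). Slc13a2 was at 0.00390 with thinned reads and Pdzk1ip1 at -0.032 when scaled to the table total. Leaving out 1 library gave -0.14 to 0.062 for Slc13a2, -0.54 to 0.047 for Slc26a6 and -0.044 to 0.090 for Pdzk1ip1. No paired analysis was possible because the young and the old libraries came from different mice. The young libraries and the old libraries share no title prefix, so that age could not be tested within one. Depth limits what can be said of Slc13a4, Slc26a6 and Slc2a12, which had 3.18 to 41.6 normalised counts.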
